A study of Canis lupus familiaris with 28 samples.

Results

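Levels of CXCL8 and 8 further mediators of acute inflammation were compared among primary canine oral malignant melanomas (OMMs). The 9 genes were CXCL8, IL1B, IL6, PTGS2, S100A8, S100A9, S100A12, CSF3R and FPR1, and each was read at the Transcript cluster (the set of array probes along 1 transcribed locus) that carried its symbol in the array annotation. Of the 9 genes, 8 had such a Transcript cluster, with 1 each, among 16295 gene symbols and 32391 Transcript clusters on the array. FPR1, a receptor for bacterial formyl peptides, was not analysed here.

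The tumours were 18 metastasising (M) OMMs, from dogs that died of metastasis, and 10 non-metastasising (NM) OMMs, from dogs that were alive long after biopsy. Formalin-fixed, paraffin-embedded (FFPE) biopsies gave the RNA, and 1 canine gene array was hybridised per tumour, so the tumour is the replicate. The M OMMs came from 6 cross breed dogs, 4 Golden Retrievers, 3 Labrador Retrievers, 2 Dachshunds, and 1 dog each of the Border Collie, Bullmastiff and Cocker Spaniel breeds. The NM OMMs came from 1 cross breed dog, 4 Golden Retrievers, 2 Labrador Retrievers, and 1 dog each of the Bouvier des Flandres, Great Dane and Irish Terrier breeds. The M tumours were also of higher clinical stage as a group, so metastatic status and stage cannot be told apart. The paper gives the NM biopsies a higher mean storage age than the M biopsies, so status is not separated from that age either. Biopsies preceded any adjuvant therapy, which NM dogs never had and some M dogs had later. No normal oral tissue was on the arrays. Values are log2 signals after RMA (robust multi-array average), and 1 unit is a doubling of signal.

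CXCL8 (interleukin-8) is a secreted chemokine that attracts neutrophils through the receptors CXCR1 and CXCR2, and it is made by many cell types, tumour cells included, after signals that activate the transcription factor NF-kB. IL1B is a cytokine upstream of that response, IL6 a cytokine that signals through STAT3, and PTGS2 (cyclooxygenase-2) the inducible enzyme of prostaglandin synthesis. S100A8, S100A9 and S100A12 are calcium-binding proteins stored in large amounts in neutrophils, and S100A8 and S100A9 are also made by squamous epithelium. CSF3R, the receptor for granulocyte colony-stimulating factor, is carried by neutrophils and their precursors.

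Across the array, 74.2% of Transcript clusters had a mean log2 signal under 2, and the median of all means was 1.62. The array medians lay between 1.496 and 1.657. The first principal component of all Transcript clusters held 34.9% of the variance, and the 7 cross breed tumours lay at its low end, between -93.2 and -37.5. All 14 measured melanocyte markers had means above 1.62, and their mean per tumour ran between 1.67 and 4.09 in M and between 1.73 and 4.17 in NM OMMs. A bulk biopsy does not separate fewer cells of a type from less RNA per cell, and this holds for every level given here.

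CXCL8 was higher on average in M than in NM OMMs, with wide overlap, and the difference did not pass the test across the array. In the 18 M OMMs the lowest CXCL8 signal was 2.73, the median 5.40 and the highest 9.0, and in the 10 NM OMMs these were 2.06, 4.09 and 7.22. The highest M values were 9.0 in the Dachshund M replicate 6, 8.36 in the Labrador Retriever M replicate 5, 7.43 in the Labrador Retriever M replicate 7, 7.16 in the cross breed M replicate 4 and 6.57 in the Border Collie M replicate 18. The top 3 of these lay above every NM tumour, and no M tumour lay below the lowest NM tumour. Of all 180 M-NM pairs of tumours, the M tumour was higher in 127 (70.6%).

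CXCL8 averaged 5.35 ± 1.88 in M and 4.03 ± 1.41 in NM OMMs (SD, n = 18 and 10), a difference of 1.32 on the log2 scale (SE 0.655, 95% interval -0.02 to 2.66) or 2.49-fold. In limma over all 32391 Transcript clusters the unadjusted p was 0.054 and the adjusted p was 1, and a two-sided permutation test of the means gave p = 0.0651. No Transcript cluster of the array passed the adjusted threshold between M and NM (0% called), and 2.55% had an unadjusted p under 0.05 in limma. The difference was 0.69 within Golden Retrievers (4 M and 4 NM), 2.76 within Labrador Retrievers (3 M and 2 NM) and 0.55 within cross breed dogs (6 M and 1 NM). Without the cross breed tumours the difference was 1.91 (unadjusted p = 0.00997, adjusted p = 0.852).

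**Figure D1:**
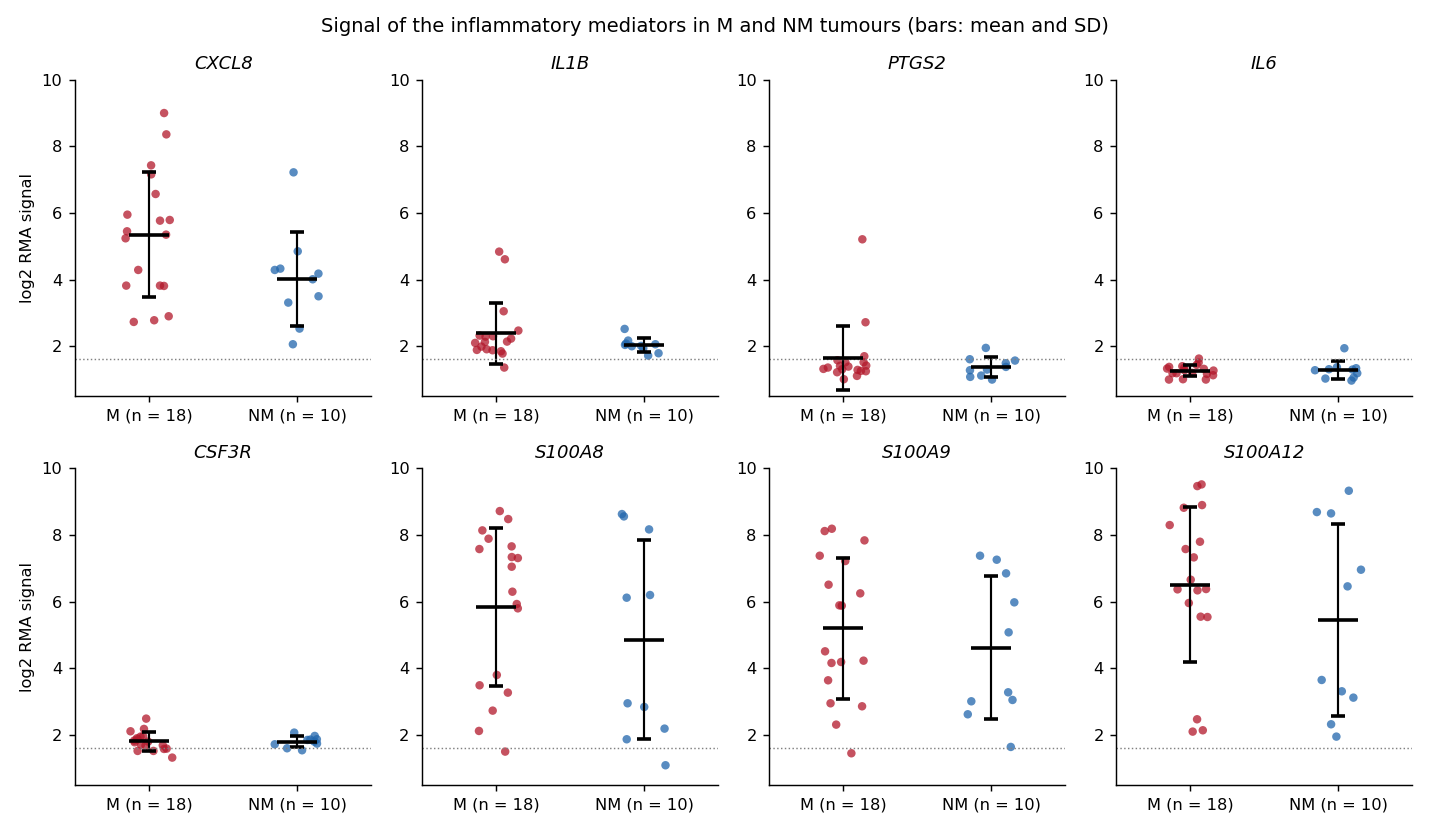
Log2 RMA signal of the 8 measured genes in each tumour, with 18 M OMMs (red) left of 10 NM OMMs (blue). Black bars give the mean and SD, and the dotted line the median of all Transcript cluster means (1.62). CXCL8 and the S100 genes spread over many log2 units in both groups, IL1B and PTGS2 are far above the rest in single M tumours, and IL6 and CSF3R lie near the dotted line.

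IL1B and PTGS2 each had a narrow range in most tumours and far higher values in a few M OMMs. The mean of IL1B was above 82.3% of Transcript cluster means, and its signal was under 1.62 in 1 of 28 tumours. The lowest, median and highest IL1B signals were 1.36, 2.13 and 4.84 in M and 1.72, 2.02 and 2.52 in NM OMMs. The IL1B signal was 4.84 in the Dachshund M replicate 6, 4.61 in the Labrador Retriever M replicate 7 and 3.05 in the Dachshund M replicate 1, and these 3 tumours lay above all NM OMMs. The mean difference of IL1B was 0.36 (SE 0.286, unadjusted p = 0.214, adjusted p = 1).

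For PTGS2 the lowest, median and highest signals were 1.01, 1.38 and 5.21 in M and 1.0, 1.34 and 1.95 in NM OMMs. The enzyme's signal lay under 1.62, the median of all Transcript cluster means, in 24 of 28 tumours. The Dachshund M replicate 6 had 5.21 and the Labrador Retriever M replicate 5 had 2.72, and both lay above every NM tumour. The mean difference was 0.27 (SE 0.301, unadjusted p = 0.385, adjusted p = 1).

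IL6 did not stand out from the low signals of the array. Its signal was under 1.62 in 26 of 28 tumours, and its mean was above only 16.7% of Transcript cluster means. The lowest, median and highest IL6 signals were 1.0, 1.27 and 1.63 in M and 0.97, 1.29 and 1.94 in NM OMMs, and no M tumour lay above the highest NM tumour. The difference was -0.01 (95% interval -0.187 to 0.161).

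S100A8, S100A9 and S100A12 had some of the widest spreads on the array, and their M and NM values covered nearly the same range. The SD of each over the 28 tumours was above that of at least 99.6% of Transcript clusters. S100A8 had a lowest, median and highest signal of 1.5, 6.67 and 8.72 in M and of 1.09, 4.53 and 8.63 in NM OMMs, a mean difference of 0.98 (SE 0.985, unadjusted p = 0.33, adjusted p = 1). Neither end of the M range lay clear of the NM range, apart from 1 M tumour above the highest NM tumour.

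S100A9 had values of 1.45, 5.19 and 8.19 in M and of 1.64, 4.18 and 7.38 in NM OMMs (difference 0.58, unadjusted p = 0.475, adjusted p = 1). S100A12 had 2.10, 6.52 and 9.52 in M and 1.95, 5.05 and 9.33 in NM OMMs (difference 1.07, unadjusted p = 0.275, adjusted p = 1). Without the cross breed tumours the differences were 2.01 for S100A8, 1.56 for S100A9 and 2.09 for S100A12, with an adjusted p of 0.852 for each.

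CSF3R had almost the same mean in M and NM OMMs. Its lowest, median and highest signals were 1.32, 1.79 and 2.49 in M and 1.54, 1.83 and 2.07 in NM OMMs, with a difference of 0.00 (95% interval -0.194 to 0.198). As many M tumours, 3, lay above the highest NM tumour as below the lowest. Over the whole array 50.4% of Transcript clusters had a difference above 0, against 7 of the 8 measured mediators. That count includes CSF3R at 0.002 and the S100 genes, which varied together, so it is not 7 separate observations.

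S100A8 values left a gap. In 11 tumours the signal was at most 3.80 and in the other 17 it was at least 5.80, with none between. The upper range held 12 M and 5 NM OMMs, and the lower range held 6 M and 5 NM OMMs. Of the 7 cross breed tumours, 6 were in the lower range. The pure breed tumours there were the Labrador Retriever NM replicate 4 (1.09), the Irish Terrier NM replicate 7 (1.87), the Golden Retriever NM replicates 9 (2.19) and 6 (2.95) and the Labrador Retriever M replicate 7 (3.27).

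The 3 S100 genes varied together among the tumours. In the RefSeq annotation of the dog (assembly UU_Cfam_GSD_1.0) S100A8, S100A12 and S100A9 are direct neighbours on 1 chromosome. Over the 28 tumours S100A9 and S100A12 had a Pearson r of 0.94 and a Spearman rho of 0.96 (permutation p = 1e-05 for each, the smallest that 100000 resamples can give; adjusted p = 9.33e-05 over 28 pairs of genes), and dropping the 2 tumours with the most extreme S100A9 left an r of 0.93. Since S100A8 values fell on 2 sides of a gap, its relations were taken on each side. S100A8 and S100A9 had an r of 0.92 over the 17 upper and 0.66 over the 11 lower tumours, and S100A8 and S100A12 had 0.88 and 0.57. Of all genes on the array, S100A9 ranked 1 and S100A12 ranked 2 by r with S100A8.

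The genes closest to the S100 genes after one another were the same 3 for each. They were found among 8568 genes with means above the median of all Transcript cluster means. The first was GJB2, a gap junction protein of squamous epithelium (r = 0.89 with S100A8, 0.87 with S100A9 and 0.82 with S100A12). The others were CYB5R3, a cytochrome b5 reductase (0.87, 0.87 and 0.83), and ANXA1, an annexin abundant in oral epithelium and in neutrophils (0.83, 0.89 and 0.83). GJB2 ran between 1.62 and 6.87 in M and between 1.59 and 5.25 in NM OMMs. These correlations are descriptions over 28 tumours that share 1 normalisation and, in part, the first principal component, with which S100A8 had an r of 0.67, S100A9 of 0.71 and S100A12 of 0.67 (adjusted permutation p of 0.000293, 0.00024 and 0.000293). With the first component removed, GJB2 had an r of 0.83 with S100A8.

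Many oral epithelium genes had high correlations with the S100 genes, and the other neutrophil genes had low ones. Pooled over both sides of the gap, the median r with S100A8 was 0.60 over 22 oral epithelium markers, with 12 above 0.5, against a median of -0.07 over all genes, of which 9.5% were above 0.5. KRT13 (0.82), KRT5 (0.75) and KRT4 (0.63), keratins of the oral lining, IVL (0.72), the envelope protein involucrin, and DSP (0.67), a desmosome protein, were among them, and KRT75 (-0.58), EVPL (-0.50) and PKP3 (-0.47) ran the other way. Over 23 other neutrophil markers the median r with S100A8 was -0.16 and none was above 0.5. AQP9 (0.45) was the highest, and NCF4 (-0.70), PGLYRP1 (-0.66) and CTSG (-0.59) were the lowest. With the first principal component removed, the median r with S100A8 was 0.35 over the epithelium markers and 0.00 over the neutrophil markers. The 2 lists were not alike in signal, as 18 of the 22 epithelium markers had a mean above 1.62 and a smaller share of the neutrophil genes had. Differences are compressed near the low end of the signal, so r over the 2 lists is not on equal terms.

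The mean signal of the 22 epithelium markers ran between 1.72 and 3.73 in M and between 1.64 and 3.26 in NM OMMs, and that of the 23 neutrophil markers between 1.49 and 1.75 in M and between 1.5 and 1.72 in NM OMMs. On the upper side of the S100A8 gap S100A8 had an r of 0.86 with the epithelium mean, and on the lower side -0.32. With the neutrophil mean the values were -0.44 and -0.20. Of 27 measured neutrophil genes, the S100 genes and CSF3R included, 12 had a mean above 1.62, the median of all Transcript cluster means. The highest of the others were CYBA at 2.92 and CYBB at 2.14, subunits of the phagocyte oxidase that macrophages also carry, and LCN2 (lipocalin-2), also made by epithelium, at 1.86. Granule genes and receptors of neutrophils were lower, with MPO (myeloperoxidase) at 1.52, CTSG at 1.40, MMP8 at 1.55, and the CXCL8 receptors CXCR1 at 1.32 and CXCR2 at 1.3. CXCR2 ran between 0.97 and 1.80 in M and between 0.99 and 1.5 in NM OMMs. The part of the amount of epithelium in the biopsies in the S100 levels was not tested.

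**Figure D2:**
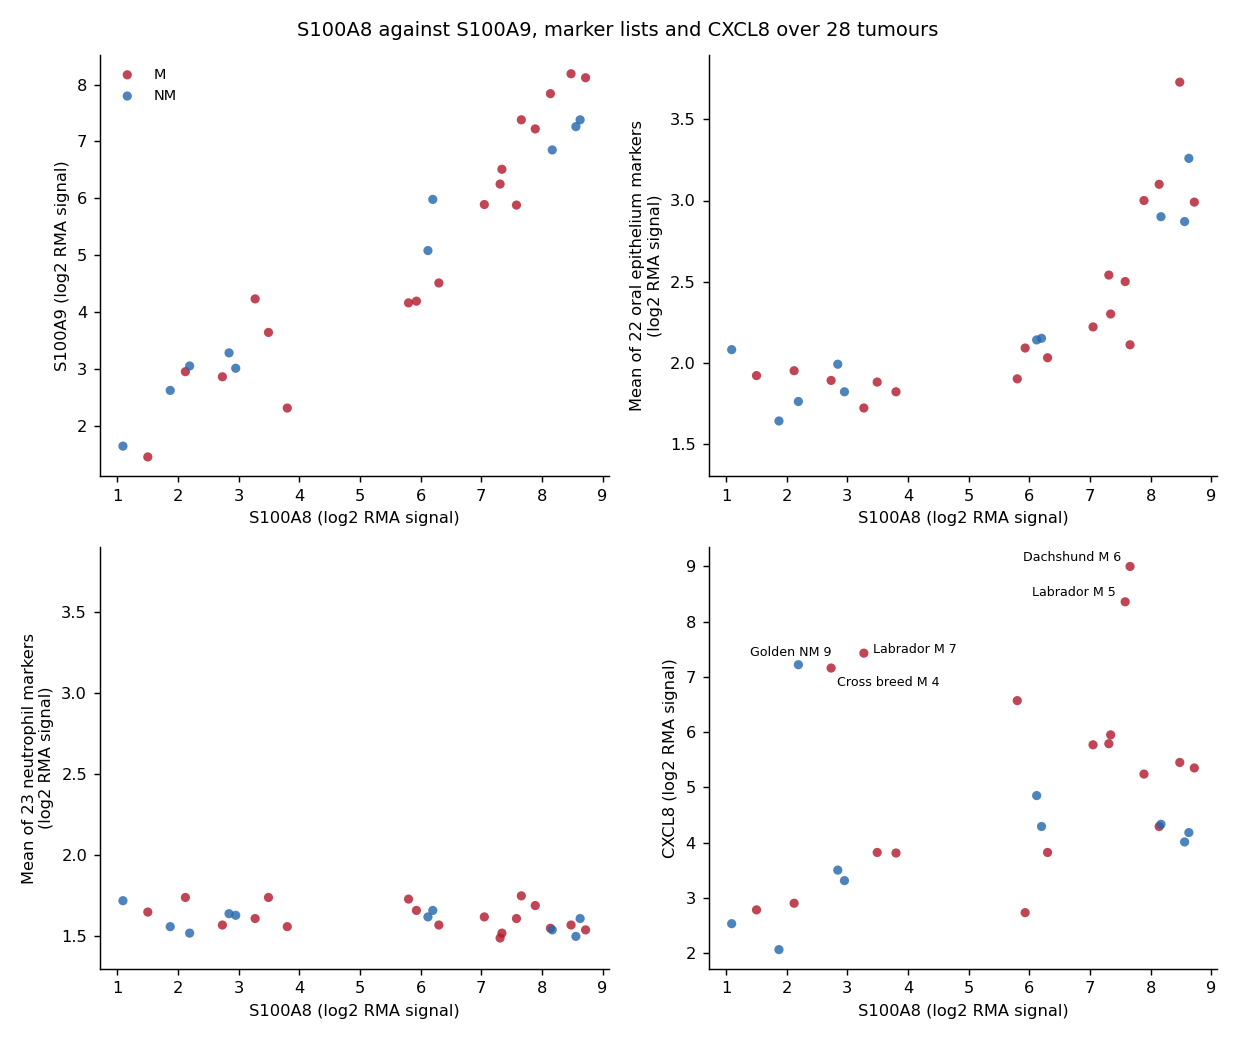
S100A8 signal (x axes, log2) in 28 tumours against S100A9, the mean of 22 oral epithelium markers, the mean of 23 neutrophil markers without the S100 genes and CSF3R, and CXCL8 (y axes, log2), with M in red and NM in blue. S100A9 follows S100A8, the epithelium mean reaches 3.73 only at high S100A8, the neutrophil mean stays between 1.49 and 1.75, and 3 tumours named in the last panel combine high CXCL8 with low S100A8.

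CXCL8, IL1B and PTGS2 were correlated with one another, mostly through a few M tumours. CXCL8 and IL1B had a Pearson r of 0.59 (permutation p = 0.00084, adjusted p = 0.00392) and a Spearman rho of 0.46 (p = 0.0134, adjusted p = 0.0526). CXCL8 and PTGS2 had an r of 0.60 (p = 0.00013, adjusted p = 0.00091) and a rho of 0.35 (p = 0.0688, adjusted p = 0.161). IL1B and PTGS2 had an r of 0.69 (p = 0.00355, adjusted p = 0.0142) and a rho of 0.59 (p = 0.00123, adjusted p = 0.00689). All p-values were from permutation tests adjusted over 28 pairs, of which 7 passed by Pearson's r.

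Much of these relations rested on the Dachshund M replicate 6, the tumour with the highest CXCL8, IL1B and PTGS2. Without it, a check chosen after the values were seen, r was 0.44 for CXCL8 and IL1B (adjusted p = 0.0798), 0.51 for CXCL8 and PTGS2 (adjusted p = 0.0272) and 0.29 for IL1B and PTGS2 (adjusted p = 0.234). Without the 2 tumours farthest from the median of the first-named gene, the values were 0.44, 0.30 and 0.44. Leaving out the Labrador Retriever M replicate 7 instead gave r = 0.88 for IL1B and PTGS2, since that tumour had 4.61 for IL1B and 1.52 for PTGS2. The Labrador Retriever M replicate 5 had the opposite pattern, with 2.47 for IL1B and 2.72 for PTGS2.

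Within M OMMs the r of CXCL8 with IL1B was 0.65, and within NM OMMs -0.03. With PTGS2 it was 0.62 in M and 0.47 in NM OMMs. No test of these differences was run.

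SOD2, a mitochondrial superoxide dismutase induced by NF-kB, was the gene closest to CXCL8 (r = 0.74, and 0.55 without the 2 tumours farthest from the CXCL8 median). SOD2 had a signal of 4.92 in the Dachshund M replicate 6, 4.70 in the Labrador Retriever M replicate 7 and 4.53 in the Labrador Retriever M replicate 5, and at most 3.0 in any other tumour. SOD2 was also among the 5 genes closest to IL1B (r = 0.73, and 0.15 without the 2 tumours farthest from the IL1B median).

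The next genes for CXCL8 were PLAU, the protease urokinase (0.67), PHC2, a Polycomb protein (0.64), SLC2A3, a glucose transporter (0.64), M6PR, a mannose-6-phosphate receptor (0.63), ACTB, an actin (0.63), AP2S1, a clathrin adaptor (0.62), NFKBIZ, an NF-kB cofactor induced by IL-1 (0.61), GAPDH, a glycolytic enzyme (0.60), and TSC22D1 (0.59). PLAU ran between 1.59 and 2.90 in M and between 1.6 and 2.51 in NM OMMs. For these 10 genes r was between 0.41 and 0.60 without the 2 farthest tumours. Removing the first principal component left r between 0.56 and 0.73.

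IL1B was closest to MYO1F, a myosin of leukocytes (r = 0.77), and PTGS2 to PPP1R3B, a subunit of protein phosphatase 1 (r = 0.85). Without the 2 farthest tumours these were 0.16 and 0.10, so that they rested on those tumours.

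**Figure D3:**
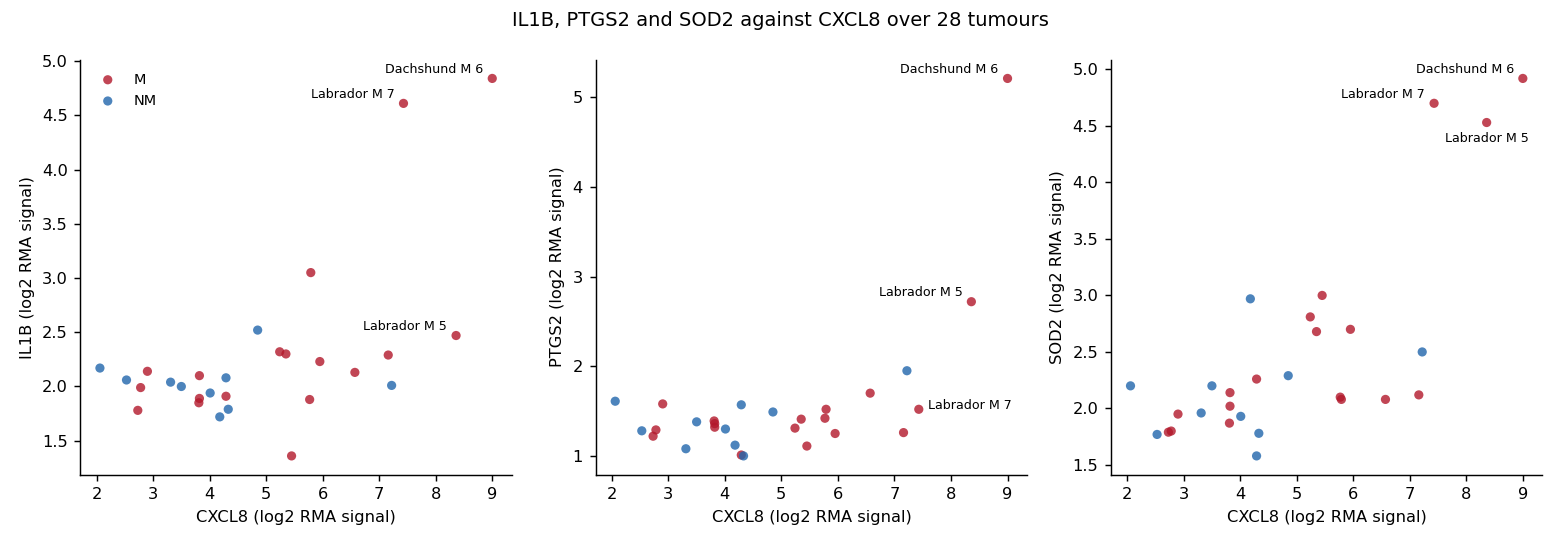
IL1B, PTGS2 and SOD2 signal (y axes, log2) against CXCL8 signal (x axes, log2) in 28 tumours, with M in red and NM in blue. The 3 named M tumours carry the high values, with SOD2 at 4.92, 4.70 and 4.53 against at most 3.0 in the rest.

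Most listed NF-kB target and regulator genes did not follow CXCL8. Of 24 genes of the NF-kB and IL-1 or IL-6 response, 3 had an r above 0.5 with CXCL8, which were SOD2, NFKBIZ and SOCS3, a feedback inhibitor of cytokine signalling (0.54). The median r was 0.14, against -0.04 over all genes. The share above 0.5 was 12.5% of the list, against 0.44% of all genes. NFKBIA (0.42) and TNFAIP3 (0.41), inhibitors of NF-kB, were below that value, and NFKBIE (-0.32) ran the other way.

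Among 16 other chemokines only CCL2, which attracts monocytes, was above 0.5 with CXCL8 (r = 0.55), against 0.44% of all genes. CCL2 ran between 1.13 and 7.14 in M and between 1.59 and 5.36 in NM OMMs. Its highest values were 7.14 in the Dachshund M replicate 6 and 6.14 in the Labrador Retriever M replicate 5, the 2 tumours farthest from the CXCL8 median. Among 17 other cytokines and growth factors OSM (oncostatin M) had an r of 0.66 and CSF3, the ligand of CSF3R, of 0.56 with IL1B. Of all genes 0.5% were above 0.5 with IL1B. OSM was highest, at 2.92, in the Dachshund M replicate 6. The r values of CCL2, OSM and CSF3 are not given without the farthest tumours. None of 11 other prostaglandin and leukotriene enzymes was above 0.5 with PTGS2, and the highest was ALOX5 (0.22). The median r of CXCL8 was -0.07 with 23 neutrophil markers, -0.02 with 22 oral epithelium markers and -0.25 with 14 T and NK cell markers.

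CXCL8 had lower correlations with the S100 genes than these had with one another, and that with S100A12 lay at the threshold. The r of CXCL8 was 0.46 with S100A12 (permutation p = 0.0153, adjusted p = 0.0537; rho = 0.50, p = 0.00839, adjusted p = 0.0392), 0.38 with S100A9 (adjusted p = 0.15) and 0.34 with S100A8 (adjusted p = 0.2). The r with S100A12 passed when any 1 of 9 tumours was left out, and was highest without the Golden Retriever NM replicate 9 (0.53, adjusted p = 0.0153). Of the 5 tumours with the highest CXCL8, the Dachshund M replicate 6 and the Labrador Retriever M replicate 5 had S100A8 signals of 7.66 and 7.58. The other 3 had 3.27 in the Labrador Retriever M replicate 7, 2.19 in the Golden Retriever NM replicate 9 and 2.73 in the cross breed M replicate 4.

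IL6 and CSF3R were related to each other (r = 0.63, permutation p = 0.00069, adjusted p = 0.00386; rho = 0.74, p = 2e-05, adjusted p = 0.00014; r = 0.68 without the 2 tumours farthest from the IL6 median). Both ran against the first principal component, with an r of -0.63 for IL6 (permutation p = 0.00015) and of -0.53 for CSF3R (permutation p = 0.00309), and with that component removed their r was 0.44 (adjusted p = 0.0718). IL6 was closest to MYCN, a transcription factor of the MYC family (r = 0.87, and 0.78 without the 2 farthest tumours), and CSF3R to LMOD2, a muscle leiomodin (r = 0.76). Both genes had low signals, so these values describe small differences. CXCL8, IL1B and PTGS2 had an r of 0.26, -0.06 and -0.07 with the first component, with adjusted permutation p of 0.243, 0.764 and 0.764. By rank CXCL8 did pass, with a rho of 0.40 (permutation p = 0.037, adjusted p = 0.0493).

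All 3 S100 genes were lower in cross breed than in pure breed OMMs after allowing for status, 3 of the 8 measured mediators. The background was wide, as limma called 19.4% of all Transcript clusters in this comparison, 5.15% being lower and 14.2% higher in cross breed OMMs. The lowest, median and highest S100A8 signals were 1.5, 2.84 and 6.30 in 7 cross breed tumours, against 1.09, 7.31 and 8.72 in 21 pure breed tumours. The difference with status in the model was -3.50 (SE 0.932, adjusted p = 0.0126 in limma). The groups overlapped, since the cross breed M replicate 3 had 6.30 and 5 pure breed tumours were under 3.80.

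S100A9 had 1.45, 2.95 and 4.51 in cross breed and 1.64, 5.98 and 8.19 in pure breed OMMs (difference -3.02, SE 0.736, adjusted p = 0.00753). S100A12 had 2.10, 3.12 and 5.96 in cross breed and 1.95, 7.33 and 9.52 in pure breed OMMs (difference -3.60, SE 0.879, adjusted p = 0.00763). These were folds of 0.0887, 0.123 and 0.0824 of the signal in pure breeds.

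The S100 differences remained past the threshold without any 1 cross breed tumour and within M OMMs alone (-3.77, -3.37 and -3.83, adjusted p of 0.00521, 0.00515 and 0.00371). With the first principal component as a covariate they were -1.35, -1.24 and -1.67 and no longer passed (adjusted p of 0.803, 0.757 and 0.729). The component was lower in cross breed tumours (-93.2 to -37.5) than in most pure breed tumours (-52.0 to 89.2), so breed class and this axis are partly the same contrast. In the paper's array quality values every cross breed dog had a low share of probe sets present. Among breeds with 1 dog, the Bullmastiff had the highest share and a component value of 82.6. The Bouvier des Flandres had the lowest share and -52.0. The part of RNA quality in this axis and in the S100 difference was not tested. The epithelium mean ran between 1.82 and 2.03 in cross breed and between 1.64 and 3.73 in pure breed OMMs, and its part in the S100 difference was not tested. Of 22 epithelium markers 6 had a difference above 0, and the median difference was -0.49, against 0.08 over all Transcript clusters. Those called were ANXA1, lower in cross breed OMMs (-2.10, adjusted p = 0.00896 in limma), and PKP3 (0.35, adjusted p = 0.0236) and EVPL (0.35, adjusted p = 0.0255), which were higher. Over the whole array 19.4% of Transcript clusters were called. The neutrophil mean ran between 1.56 and 1.74 in cross breed and between 1.49 and 1.75 in pure breed OMMs. Of the 23 other neutrophil markers NCF4 (0.40, adjusted p = 0.00809 in limma) and CTSG (0.58, adjusted p = 0.0128) were higher in cross breed OMMs. Lower values in cross breed OMMs were not particular to epithelium. A difference above 0 was found for 0 of 16 fibroblast markers (median -0.61), 1 of 14 melanocyte markers (-0.49) and 8 of 14 T and NK cell markers (0.04).

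CXCL8 was lower in cross breed OMMs by a difference that did not pass over all tumours. Its lowest, median and highest signals were 2.78, 3.81 and 7.16 in cross breed and 2.06, 5.24 and 9.0 in pure breed OMMs (difference -1.70, SE 0.691, adjusted p = 0.0776). Each cross breed tumour was left out in turn. Without the cross breed M replicate 4, which had 7.16, the highest of the cross breed tumours, the difference was -2.17 (adjusted p = 0.0302 in limma). That fit was singled out after the values were seen, so its pass rests on leaving out the contrary tumour. IL1B (-0.44), PTGS2 (-0.34), IL6 (0.17) and CSF3R (0.20) were not called between cross breed and pure breed OMMs, with adjusted p between 0.161 and 0.481.

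Of the genes of the wider pathway, the NF-kB cofactor NFKBIZ (-0.51, adjusted p = 0.0101), STAT3 (-1.12, adjusted p = 0.0331), which carries the IL-6 signal, and IL6ST (-1.11, adjusted p = 0.0317), the shared receptor chain of IL-6, were lower in cross breed OMMs, as was LTA4H (-0.24, adjusted p = 0.0302), an enzyme of leukotriene synthesis. FOSL1 (0.32, adjusted p = 0.0216), NFKBIE (0.37, adjusted p = 0.0332) and the chemokine CCL4 (0.31, adjusted p = 0.0365) were higher, as were the receptors CSF2RA (0.25, adjusted p = 0.0319) and AGER (0.32, adjusted p = 0.0495), which binds S100 proteins. In the NF-kB and IL-1 or IL-6 response list 2 of 24 genes were called higher and 2 lower, with a median difference of -0.18 against 0.08 over all Transcript clusters. Of 21 receptors 2 were called higher and 1 lower, of 17 chemokines 1 was called higher, and of 12 prostaglandin and leukotriene enzymes 1 was called lower. None of 19 cytokines and growth factors was called. Beside the 19.4% of all Transcript clusters called, no list of the pathway had a larger share.

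Between M and NM OMMs no gene of any list passed, as for the array as a whole (0% called). Of 17 chemokines 8 had a difference above 0 (median -0.01), of 19 cytokines and growth factors 10 (0.03), of 21 receptors 8 (-0.03), and of 12 prostaglandin and leukotriene enzymes 7 (0.05). Of 24 genes of the NF-kB and IL-1 or IL-6 response 13 were above 0 (median 0.03), and of 5 inflammasome genes 4 (0.04). The mediators themselves are counted in these lists. SOD2 had a difference of 0.52 (unadjusted p = 0.12), and FPR2, the formyl peptide receptor that was measured, had 0.08 (unadjusted p = 0.379).

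Among the markers of cells in the biopsy, a difference above 0 was found for 19 of 27 neutrophil genes (median 0.03), against 50.4% of all Transcript clusters. The 27 included CSF3R at 0.002 and the 3 S100 genes, which varied together, and only 12 of the 27 had a mean above 1.62. The counts were 7 of 15 for macrophage and dendritic cell genes (-0.05), 11 of 22 for oral epithelium genes (0.00) and 9 of 14 for melanocyte genes (0.07). They were 7 of 16 for fibroblast genes (-0.04), 6 of 14 for endothelial cell genes (-0.03) and 2 of 14 for T and NK cell genes (-0.05).

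**Figure D4:**
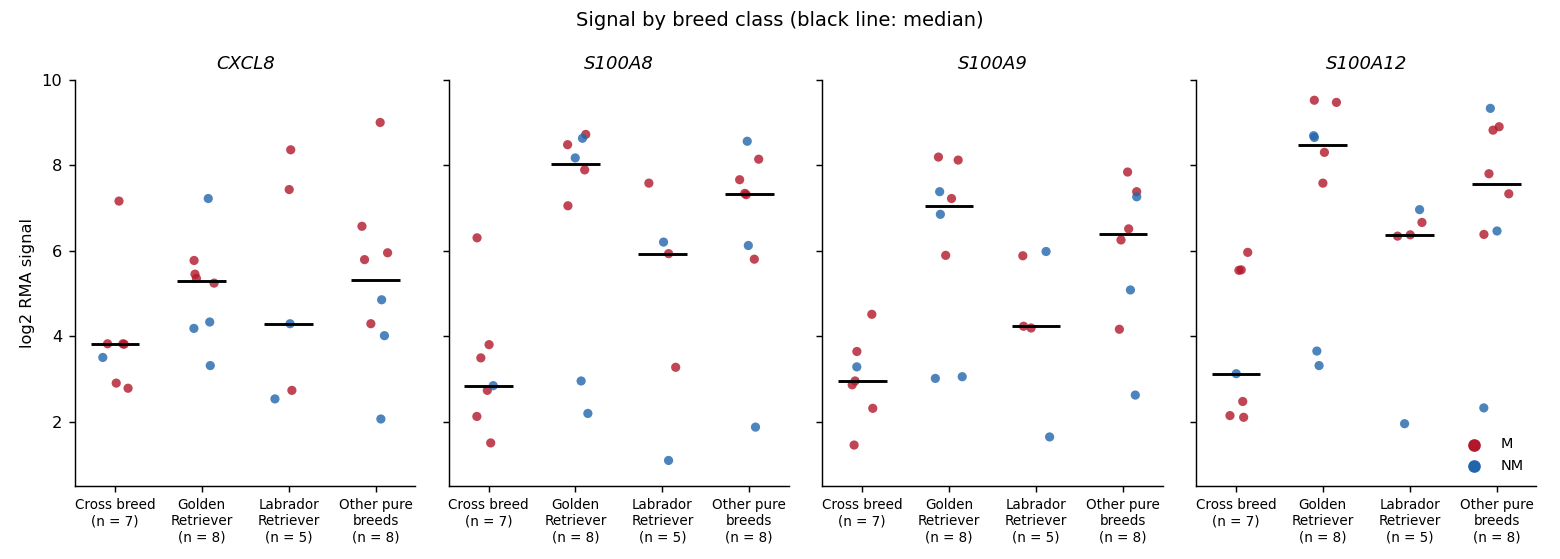
Log2 RMA signal of CXCL8, S100A8, S100A9 and S100A12 by breed class, with M tumours in red, NM tumours in blue and the median as a black line. The S100 medians are 2.84, 2.95 and 3.12 in cross breed OMMs, the lowest of the 4 classes, and Golden Retrievers have the highest, with 2 NM tumours far below the other 6.

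Golden Retriever OMMs had the highest S100 medians, and the differences did not pass. S100A8 had a lowest, median and highest signal of 2.19, 8.03 and 8.72 in 8 Golden Retriever tumours, against 1.09, 5.87 and 8.56 in the 20 others. The difference was 2.05 for S100A8 (SE 1.01, unadjusted p = 0.0523, adjusted p = 0.174), 1.90 for S100A9 (SE 0.805, unadjusted p = 0.0259, adjusted p = 0.124) and 2.06 for S100A12 (SE 0.977, unadjusted p = 0.0445, adjusted p = 0.16). In this comparison 2.54% of all Transcript clusters and none of the 8 mediators were called, and 29.4% and 2 of the 8 had an unadjusted p under 0.05. The 20 other tumours included the cross breed ones. With the first principal component as a covariate the S100A8 and S100A12 differences turned to -0.13 and -0.03.

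Among Golden Retrievers the S100 genes separated the 4 M from 2 of the 4 NM tumours. S100A8 was 7.05, 7.89, 8.72 and 8.48 in Golden Retriever M replicates 8, 10, 14 and 15, and 8.17, 8.63, 2.95 and 2.19 in NM replicates 2, 3, 6 and 9. The 2 low NM tumours also had low S100A9 (3.01 and 3.05) and S100A12 (3.31 and 3.65), so the groups overlapped through the other 2. CXCL8 in the same tumours was 5.77, 5.24, 5.35 and 5.45 in M and 4.33, 4.18, 3.31 and 7.22 in NM. The interaction of status with the Golden Retriever class was not called for any mediator (S100A8 1.79, 95% interval -2.41 to 5.98; CXCL8 -1.08, 95% interval -4.05 to 1.89) or any Transcript cluster (0% called, with 3.07% at an unadjusted p under 0.05).

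In Labrador Retrievers CXCL8 was 2.73, 8.36 and 7.43 in M replicates 2, 5 and 7, and 2.53 and 4.29 in NM replicates 4 and 5. The M range held the whole of the NM range but for its lowest value. S100A12 was between 6.34 and 6.96 in 4 of the 5 tumours and 1.95 in NM replicate 4, which also had the lowest S100A8 of all tumours (1.09). None of the mediators and no Transcript cluster was called between Labrador Retriever and other OMMs (0% called, with 5.41% at an unadjusted p under 0.05 in limma, and no mediator among them). The differences were 0.30 for CXCL8, 0.43 for IL1B and -0.77 for S100A8.

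**Figure D5:**
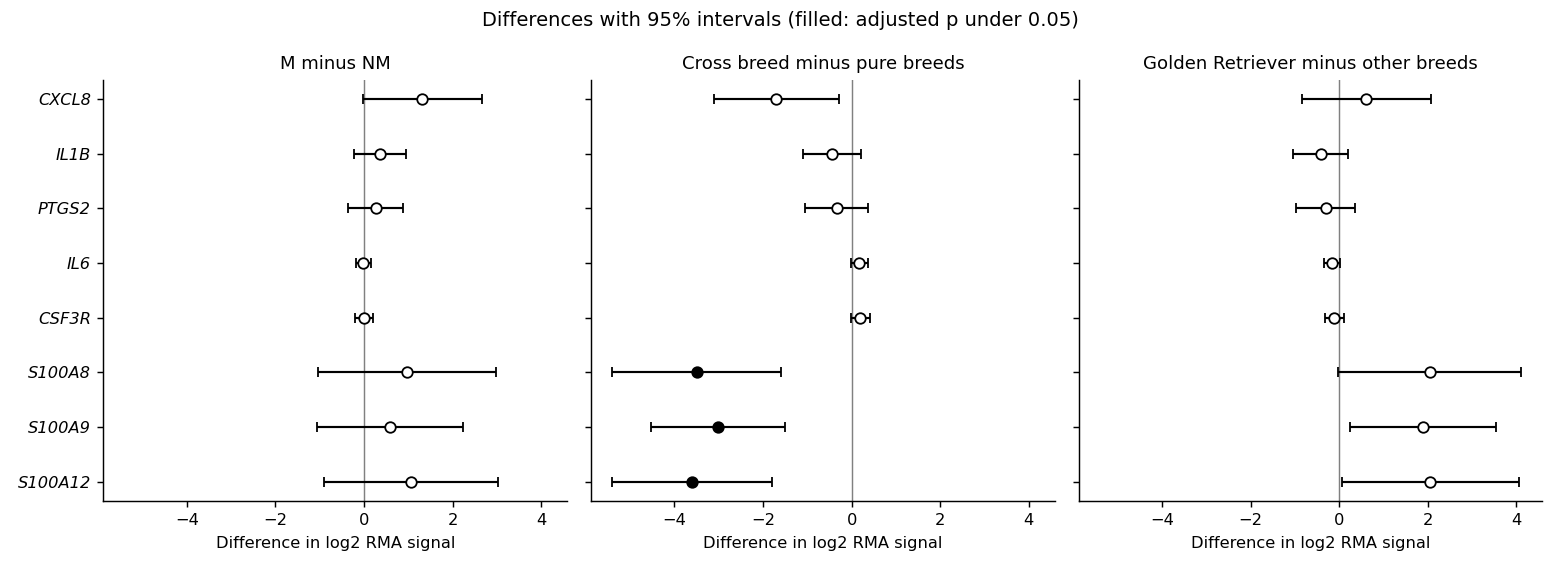
Difference in log2 RMA signal with its 95% interval (x axes) for the 8 measured genes (y axis) in M minus NM, cross breed minus pure breeds and Golden Retriever minus other breeds, with filled points for an adjusted p under 0.05 in limma. Only S100A8, S100A9 and S100A12 in the cross breed comparison are filled, at -3.50, -3.02 and -3.60.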

How the data were processed

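RNA from FFPE biopsies was hybridised to canine gene arrays. The authors summarised them with Affymetrix Expression Console 1.3 by RMA, and the deposited values are log2 signals per Transcript cluster, with no counts and no detection calls, so precision rests on the number of tumours. The genome build of the array annotation is not given in the sources used here, and no coordinate was used. Nothing says how the tumours were batched.

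All 32391 Transcript clusters were fitted with limma 3.58.1 in R 4.3.3, and p-values were adjusted by Benjamini-Hochberg, with calls at under 0.05. M was compared with NM without covariates, and breed classes with status as a covariate. Correlations used Python 3.11.15 with 100000 permutations and were adjusted over 28 pairs, or over 8 relations with the first principal component. The limma fit and the correlation test were tested on simulated data. The brightest Transcript cluster stood for a gene with several. Genes other than the mediators were named by a rule: the 10 genes closest to CXCL8 and the 5 closest to each other mediator by Pearson's r, among genes of 1 symbol whose mean exceeded the median, and, where a result turned on them, up to 4 genes with the smallest p between M and NM in each of 13 lists (chemokines, cytokines and growth factors, receptors, prostaglandin and leukotriene enzymes, NF-kB and IL-1 or IL-6 response, inflammasome, and markers of neutrophils, macrophages and dendritic cells, oral epithelium, melanocytes, fibroblasts, endothelial cells, and T and NK cells). Listed genes named for their correlation or their breed difference were chosen after their values were seen. The mediators and lists were chosen with earlier results of these data known. The alternatives were other normalisations, filters, variance priors, array weights, the methods' t-test (without the paper's filters and permutation adjustment), breed and replicate blocks, the first component as a covariate, and subsets of tumours. No label ties sex, age or RNA integrity to each tumour, and they were not used in any fit. The paper does list RNA and array quality by dog with its breed. There every cross breed dog had a low share of probe sets present, as had some pure breed dogs. The higher shares were all in pure breed dogs, so breed class and RNA quality are not separated.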

Additional observations from a re-analysis of the deposited data

Results flagged for a closer look

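In groups of 4 to 10 tumours, 56 combinations of gene and group were searched for a tumour far from the others, and 10 met Dixon's 95% criterion. Chance alone marks about 1 in 20 groups.

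The cross breed M replicate 4 had a CXCL8 signal of 7.16, far from the other cross breed tumours (2.78 to 3.82), both among the 6 M and among all 7 cross breed tumours. The Labrador Retriever M replicate 7 had an IL1B signal of 4.61, against 1.78 to 2.47 in the other Labrador Retrievers. For PTGS2, the Golden Retriever NM replicate 9 had 1.95, against 1.0 to 1.42 in the other Golden Retrievers and 1.0 to 1.12 in the other NM ones. PTGS2 was 1.58 in the cross breed M replicate 13 (others 1.26 to 1.39) and 2.72 in the Labrador Retriever M replicate 5 (others 1.22 to 1.57). IL6 was 1.94 in the Bouvier des Flandres NM replicate 8, against 0.97 to 1.37 in the other NM OMMs. S100A12 was 1.95 in the Labrador Retriever NM replicate 4, against 6.34 to 6.96 in the other Labrador Retrievers. CSF3R was 1.54 in the Golden Retriever NM replicate 2, against 1.85 to 1.87 in the other Golden Retriever NM OMMs.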

How the results depend on the processing

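No Transcript cluster passed between M and NM OMMs under any alternative, and CXCL8, IL1B, PTGS2, S100A8, S100A9 and S100A12 were higher in M under all of them. CXCL8 differed by 1.10 to 1.67 without single tumours. The CSF3R difference turned to -0.013 with array weights, -0.025 with breed as a random block, -0.025 with breed as a block in the breeds of both groups, and -0.12 without the cross breed tumours. Without single tumours it ran between -0.038 and 0.032, and that of IL6 between -0.047 and 0.060. The count at an unadjusted p under 0.05, 825, was 362 with only Transcript clusters above the median, 1561 with the first component as covariate, 1353 and 1335 with the random and the fixed breed block, and 1773 without cross breed tumours.

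The replicate numbers of M and NM did not pair the tumours, since only 4 of 10 correlations of same-numbered deviations were above 0.1 (-0.41 to 0.12). With the replicate block the CXCL8 difference was 2.10 (unadjusted p = 0.0197), CSF3R turned to -0.014, and no Transcript cluster was called, with 858 at an unadjusted p under 0.05.

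With the first component as covariate, 3 Transcript clusters were called for cross breed against 6281, and S100A8, S100A9 and S100A12 were no longer called (-1.35, -1.24 and -1.67). IL6 turned to -0.06, and 2466 had an unadjusted p under 0.05 against 11959 (7300 above the median). Without single cross breed tumours the count ran between 3771 (without M replicate 17) and 5841. IL6 was called within M OMMs alone (0.23), and CXCL8 without the cross breed M replicate 4 (-2.17).

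The Golden Retriever count of 824 was the least stable. It was 241 with an intensity trend and robust prior, 104 after quantile normalisation, 2214 above the median, 0 with the first component and 11 in M OMMs alone, and without single tumours it ran between 2 (M replicate 8) and 4908 (M replicate 14), with 1872 to 2620 without NM replicates 9 and 6 and 4 to 17 without M replicates 10 and 15 and NM replicates 2 and 3. With the first component S100A8, S100A12 and CSF3R turned to -0.13, -0.032 and 0.069. Of 9521 at an unadjusted p under 0.05, the alternatives gave 6298 above the median, 1334 with the first component and 4903 in M OMMs. The interaction gave 421 and 1659 at that level, against 993.

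For Labrador Retrievers, 0 or 1 Transcript cluster was called without single tumours, and 849 were at an unadjusted p under 0.05 above the median, against 1753. With the first component S100A8, S100A9 and S100A12 turned to 0.19, 0.11 and 0.43. Without single tumours the differences ran between -0.42 and 1.06 for CXCL8, -0.063 and 0.68 for IL1B, -0.075 and 0.017 for IL6, -0.10 and 0.29 for PTGS2, -1.40 and 0.054 for S100A8, -1.03 and 0.28 for S100A12, and -0.12 and 0.026 for CSF3R. Of the 28 pairs of mediators 7 were called, 4 without the 2 tumours farthest from the CXCL8 median, and 5 (without the Dachshund M replicate 6) to 8 without single tumours. The causes were not tested. Each mediator had 1 Transcript cluster, so the choice of the most variable one gave no other value. IL6 and most PTGS2 values lay near the low end of the signal, where differences are compressed.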

Other observations

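Other S100 genes lie close to S100A8 on its chromosome in the RefSeq annotation of the dog, and they were looked at after the values of S100A8 were seen. Over the 28 tumours the r with S100A8 was 0.76 for S100A16, 0.65 for S100A4, 0.65 for S100A6, 0.59 for S100A2, 0.45 for S100A14, 0.42 for S100A13, -0.34 for S100A3 and -0.49 for S100A5. With the first principal component removed the values were 0.51 for S100A16, 0.28 for S100A4, 0.44 for S100A6, 0.37 for S100A2, 0.15 for S100A14, 0.34 for S100A13 and -0.30 for S100A5, and S100A3 turned to 0.16. PPBP, a platelet chemokine 2 genes from CXCL8, had an r of -0.03 with it.

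Fibroblast markers were also correlated with S100A8. The median r with S100A8 was 0.50 over 16 fibroblast markers, 8 of them above 0.5, with LUM (lumican) highest at 0.69, and it was 0.25 with the first principal component removed. Within the upper side of the S100A8 gap the r with the fibroblast mean was 0.28, against 0.86 with the epithelium mean, and on the lower side the values were -0.36 and -0.32.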
